A study of Mus musculus with 8 samples.

Results

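The 5′UTR m6A peaks of bone marrow MSCs were the 518 of 10160 deposited peaks whose summit lay in the 5′UTR of an annotated coding transcript and in no coding sequence (CDS) or 3′UTR of any coding transcript (5.10%, 95% Wilson interval 4.69% to 5.54%, counting error only). They lay on 509 genes. Placement used the summit alone, on the mm9 transcripts of GENCODE vM1, and no measured value entered the choice. MeRIP-Seq was made from C57BL/6 bone marrow MSCs labelled wild type, with 2 m6A immunoprecipitates (RNA fragments pulled down with an antibody against m6A) and 2 inputs, and the authors deposited 1 peak list for all 4 samples. The list therefore gives no replicate error, and its sequencing depth is unknown. RNA-seq compared 2 libraries from MSCs of Prx1-Cre;Mettl3fl/fl mice with 2 from Mettl3fl/fl mice, which the labels call wild type. Prx1-Cre is driven by a promoter of limb bud mesenchyme, and Cre removes part of Mettl3, the catalytic subunit of the m6A methyltransferase. All MSCs, in both genotypes, had been flushed from tibiae and femurs, cultured on plastic and kept for 2 days in osteogenic medium. The sources used here do not give the age of the mice for these samples, and do not say whether the samples came from separate animals, so p-values measure only the spread between these libraries.

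N6-methyladenosine is written on nascent mRNA by Mettl3, Mettl14 and Wtap at adenosines that are followed by cytidine, and most of it lies in long internal exons and near stop codons. In the 5′UTR, m6A has been linked to the start of translation without the cap-binding factor, in particular on stress-induced messages. The methylation next to the cap, N6,2′-O-dimethyladenosine (m6Am), is a different mark, written by Pcif1 on transcripts whose first base is A. Antibodies against m6A also bind m6Am, so that at an annotated start both marks cannot be told apart by this assay.

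The sequences under named 5′UTR peaks are shown because the letters nearest the summit differed between peaks. Each line gives the mm9 bases around the motif nearest the summit, read 5′ to 3′ on the transcript strand, with the motif in capitals. The motif was DRACH (A, G or T, then A or G, then AC, then A, C or T), searched on the transcript strand only, since m6A is on RNA. A match is a description of the letters and not a mapped methylated base.
Fbf1, chr11:116029316-116029344, minus strand: cagggcccctagGGACTagggagaagctc
Arhgap25, chr6:87483107-87483135, minus strand: ccagcccctgggGGACTgtgggtgggact
Tgfb1, chr7:26472327-26472355, plus strand: tcagagacgtggGGACTtcttggcactgc
Eif6, chr2:155652311-155652339, minus strand: cgcagggcgagaGGACTtggggcaggaga
Ftl1, chr7:52715065-52715093, minus strand: tcgcagcctccgGGACCatctcctcgctg
Ccdc80, chr16:45094254-45094282, plus strand: tgtggcaaccaaGGACCggcacacacaga
Alkbh5, chr11:60351821-60351849, plus strand: gcctggcactgaGGACCctcgcttccctt
Slc15a3, chr19:10917456-10917484, plus strand: gagaggaggggaGGACAgaggagagagtc
Pcif1, chr2:164704872-164704900, plus strand: agtcccggcccgGGACAcaagatggcggc
Hnrnpc, chr14:52723594-52723622, minus strand: gcgtctcggcgtAGACTcgcagtaggaga
Man2a1, chr17:64950739-64950767, plus strand: gaagtcgggcagAGACCtctcctctgact
Fth1, chr19:10057235-10057263, plus strand: agtgcttgaacgGAACCcggtgctcgacc
Gpnmb, chr6:48986572-48986600, plus strand: ccacactgcttaAAACAtcacatgatctc
Rbm15, chr3:107136122-107136150, minus strand: agacaacgaataTAACCaatgaggtactg
Stx3, chr19:11893766-11893794, minus strand: gtctctgagcccGAACCgcacagatttta
Ccdc91, chr6:147424419-147424446, plus strand: tgaggatgtcctGGACgccgggtggtgt
The first 4 of these hold GGACT and the next 5 hold GGACC or GGACA. The others hold a DRACH word without GGAC, except Ccdc91, whose 5′UTR had no DRACH word and whose GGAC is shown. Rbm15, a cofactor of the m6A writer, had the A of its motif exactly at the summit (offset of 0 nt), and Fbf1 had it 3 nt downstream.

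Over all members, GGACT was the DRACH word nearest the summit more often than any other. It was nearest at 83 of 494 summits with a DRACH word in the 5′UTR (16.8%, 95% Wilson interval 13.8% to 20.4%), whereas it made up 7.86% (6.83% to 9.03%) of the 2302 DRACH words counted outside the peaks in the same 5′UTRs. The densities given further below rest on 2160 DRACH words outside the peaks, so these counts were not made on the same set. GGACC was nearest at 14.8% of summits (11.9% to 18.2%) and made up 11.6% outside (10.4% to 13.0%), with intervals that overlapped. GGACA was nearest at 9.11% and made up 6.69% outside, again with overlapping intervals. Words that begin with TA were rare both at summits, from 0.81% for TAACA to 1.82% for TAACC, and outside the peaks, at 1.43% and 2.65%. The nearest DRACH word lay a median of 16 nt from the summit (quartiles 6 and 32 nt), within 20 nt at 291 of 518 summits (56.2%), and the nearest GGAC a median of 32 nt (quartiles 13 and 67.5 nt).

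GGAC was denser inside the peaks than elsewhere in the same 5′UTRs. The 112764 bases of 5′UTR under the peaks held 8.44 GGAC per 1000 bases, and the 139551 bases of the same 5′UTRs outside them held 5.15, a ratio of 1.64. For DRACH, which contains every GGAC followed by A, C or T, the densities were 19.7 and 15.5 per 1000 bases, a ratio of 1.27. Among all 256 words of 4 bases, GGAC had the largest difference between windows of 50 bases each side of the summits and windows of the same width in the 5′UTRs of tested genes with no 5′UTR peak. It was in 61.4% of 453 summit windows and in 39.1% of 21587 other windows. The kinds of window were not fully alike. Summit windows could run on into the CDS, and those cut short by the transcript start were left out. The other windows were laid end to end from the transcript start and held 5′UTR only. By the ratio of these shares GGAC ranked 2 and GACT, which overlaps it, ranked 1 (46.4% and 28.5%). The median GC content was 62.4% in both kinds of window. Along the transcript, the GGAC density was highest in the 10-nt bin centred 30 nt downstream of the summit, at 12.5 per 1000 bases, and 5.71 in the bin centred 60 nt upstream.

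**Figure D1:**
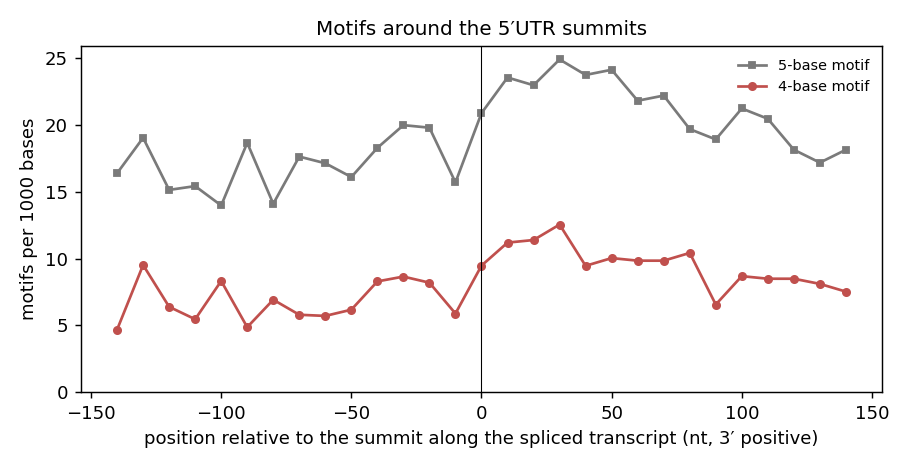
Density of GGAC (red circles, the 4-base motif) and of DRACH (grey squares, the 5-base motif) in 10-nt bins along the spliced transcript around the summits of the 518 5′UTR peaks; the x axis is nt from the summit and the y axis motifs per 1000 bases of available transcript. GGAC reached 12.5 per 1000 bases at 30 nt downstream, and both motifs were denser just downstream of the summit than upstream.

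Set beside CDS and 3′UTR peaks, 5′UTR peaks held a motif less often over the whole peak. In equal windows this remained for DRACH, whereas the GGAC intervals overlapped. Set beside intron peaks, 5′UTR peaks held GGAC more often. A GGAC was present in 421 of 518 5′UTR peaks (81.3%, 95% Wilson interval 77.7% to 84.4%), in 88.1% of 5776 CDS peaks (87.2% to 88.9%), in 89.6% of 2386 3′UTR peaks (88.3% to 90.7%) and in 69.0% of 532 intron peaks (64.9% to 72.8%). CDS and 3′UTR peaks were longer. Peaks and windows were read here from the genome, so they could hold intron bases and bases before the transcript start. When only the 5′UTR bases under the peak were searched, 382 of the 518 members held a GGAC. In equal windows of 50 bases each side of the summit, the share with GGAC was 58.9% (54.6% to 63.0%) in the 5′UTR. It was 61.4% (60.2% to 62.7%) in the CDS and 63.2% (61.3% to 65.2%) in the 3′UTR, with intervals that overlapped that of the 5′UTR. In introns it was 40.4% (36.3% to 44.6%). With 100 bases each side, the share with GGAC was 80.9% in the 5′UTR, 80.9% in the CDS and 82.1% in the 3′UTR. The share with DRACH in equal windows was 84.7% (81.4% to 87.6%) in the 5′UTR, 95.1% (94.5% to 95.7%) in the CDS and 96.9% (96.1% to 97.5%) in the 3′UTR. In intron peaks it was 82.9% (79.5% to 85.9%), with an interval that overlapped that of the 5′UTR. The same windows had a median GC content of 63.4% in the 5′UTR, 55.4% in the CDS, 53.5% in the 3′UTR and 52.5% in introns, whose part in the motif shares was not tested.

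The 5′UTR peaks were short, with few fragments and a high fold enrichment. Their median fold enrichment over the local background, as given by the authors' peak caller, was 4.35 (quartiles 3.33 and 5.80; 95% interval of the median 4.21 to 4.56), against 3.77 for CDS peaks and 3.82 for 3′UTR peaks. Their median pileup, the number of fragments at the summit, was 49 (quartiles 27 and 79.8), against 67 and 69. Their median length was 231 nt, against 322 and 302 nt. The shortest peak in each category was 200 nt. Intron peaks had a still higher median fold (5.34) and a lower median pileup (31). Among peaks whose length lay between the quartiles of all peaks (232 and 437 nt), the median fold was 4.29 in the 5′UTR (95% interval of the median 4.12 to 4.53), 3.78 in the CDS (3.70 to 3.86) and 3.83 in the 3′UTR (3.71 to 3.94). The median −log10 q was 13.9 in the 5′UTR, 14.6 in the CDS and 15.2 in the 3′UTR.

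**Figure D2:**
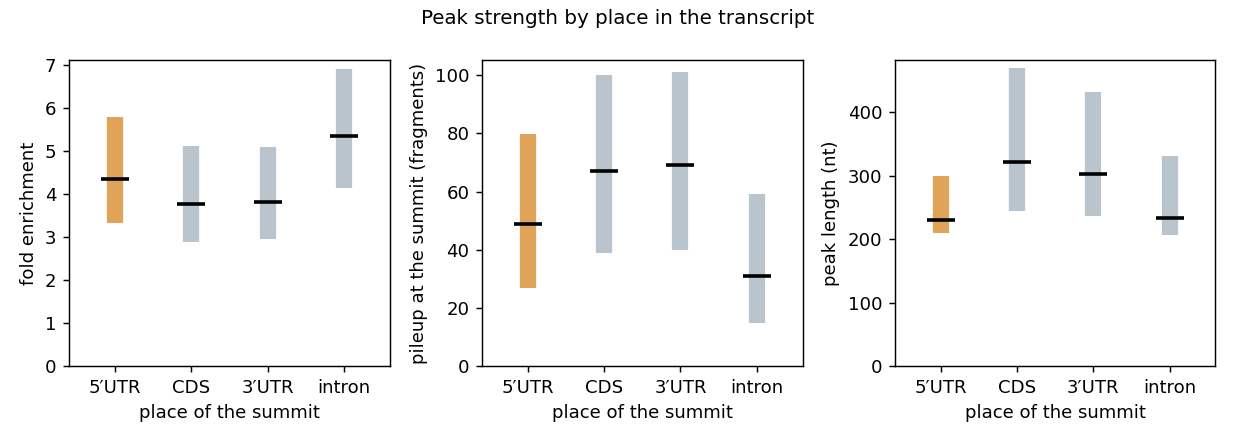
Fold enrichment, pileup (fragments at the summit) and peak length (nt) of the deposited peaks by place of the summit; bars span the quartiles and black lines mark the medians, over 518 5′UTR, 5776 CDS, 2386 3′UTR and 532 intron peaks. The 5′UTR peaks (orange) had a median fold of 4.35 and a median pileup of 49, against 3.77 and 67 in the CDS.

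The members with the most fragments at the summit included both chains of ferritin, the iron storage protein. Slc15a3, a lysosomal peptide and histidine transporter, had a pileup of 248 at chr19:10916972-10917849, in its first exon, rank 21 among all peaks of the list. Fth1 and Ftl1, the heavy and light chains of ferritin, each had a pileup of 203, with folds of 2.90 and 2.81, and their mean levels in the Mettl3fl/fl libraries were 9501 and 15201 TPM. These were followed by Tgfb1, a cytokine that regulates bone remodelling (200), Ctnnd1, the p120 catenin (199), and Ccdc80, a secreted matrix protein (197). None of the 6 had a fold above 3.25. In both ferritin mRNAs the 5′UTR carries the iron-responsive element, a stem-loop whose loop holds CAGUG. The word CAGTG was found once in each 5′UTR, starting at base 42 of 167 in Fth1 and at base 90 of 253 in Ftl1. The summits lay 38 and 66 nt downstream of the start of that word. It was present in 22.7% of the 13000 5′UTRs of tested genes, so these letters alone do not mark the element.

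The members with the highest fold were a different set. Krt5, a keratin of basal epidermis, and Dmkn, a secreted epidermal protein, both had a fold of 17.4 and a pileup of 26, identical to the digits given. Their peaks lay at chr15:101542775-101543431 and chr7:31548712-31549173. Neither gene passed the filter on low counts in RNA-seq, where Krt5 had 1, 0, 0 and 2 counts and Dmkn 5, 3, 1 and 0 in the Mettl3fl/fl and then the Prx1-Cre;Mettl3fl/fl libraries. Epb4.1l1, a membrane skeleton protein, followed with a fold of 15.8, and then Stx3, a syntaxin of membrane fusion (13.5), Txnrd1, the cytosolic thioredoxin reductase (13.4), and Ccdc91 (13.3). The last 3 had no other peak on the gene, and their pileups were 20, 36 and 24. In all, 15 of the 518 members lay on genes under 1 TPM in the Mettl3fl/fl libraries or not tested.

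By −log10 q, which combines both quantities, the first members were Gpnmb, a glycoprotein of osteoblasts and macrophages, at 65.3, and Fbf1, a protein of the ciliary transition fibres, at 63.4. Fbf1 had a fold of 12.1 with 91 fragments, and its peak at chr11:116028981-116029538 held 6 GGAC. Arhgap25, a Rac GTPase-activating protein of blood cells, had 57.7, Timp2, an inhibitor of metalloproteinases, 55.9, Man2a1, a Golgi mannosidase, 55.5, and Metrnl, a secreted factor, 53.9. Their folds ran from 5.66 to 8.67. The peaks of Fbf1 and Man2a1 were the only ones on their genes.

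Compared with even placement, summits were fewer within 50 nt of the annotated start and more frequent from there to 149 nt. They lay a median of 137.5 nt downstream of the annotated start along the spliced transcript (quartiles 81 and 351 nt) and 163 nt upstream of the start codon (quartiles 70.3 and 313 nt). Within 50 nt of the start there were 65 summits (12.5%, 95% Wilson interval 9.97% to 15.7%), where even placement along the same 5′UTRs would put 18.8%. In the next 50 nt there were 118 summits and even placement gave 85.2, and from 100 to 149 nt there were 94 against 67.8. From 150 to 299 nt the counts fell below even placement, with 38, 26 and 19 summits against 52.4, 40.7 and 31.0. Over the first 100 nt the excess and the deficit cancelled, at 35.3% of summits and 35.3% under even placement. Even placement takes no account of peak length. The shortest 5′UTR peak was 200 nt, and 276 of the 518 peaks reached the annotated start. The deficit of summits there therefore does not place the mark away from the start. Distances to the start codon followed even placement more closely, with 20.3% within 50 nt (17.0% to 23.9%) against 18.8%. The annotated start is not a measured start in these cells, and taking for each summit the transcript with the shortest distance raised the share within 100 nt to 44.6%.

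**Figure D3:**
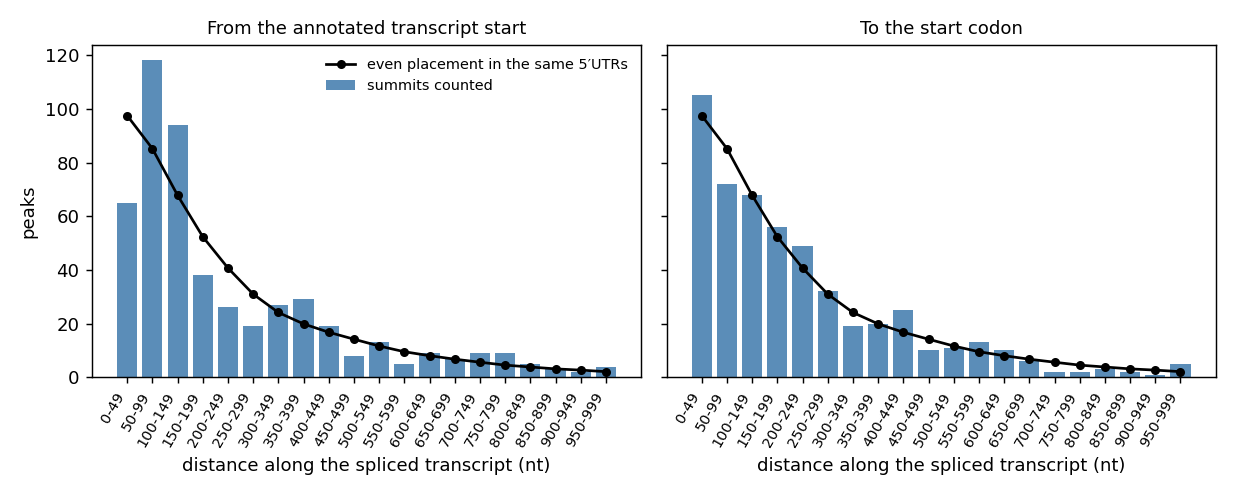
Number of 5′UTR summits (blue bars) by distance in nt along the spliced transcript, from the annotated start (left) and to the start codon (right), in 50-nt bins up to 999 nt; black points give the number that even placement along the same 5′UTRs would put in each bin. From the start, the first bin held 65 summits against 97.5 and the second 118 against 85.2.

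Most summits, 423 of 518 (81.7%), lay in exon 1, 79 (15.3%) in exon 2 and 16 (3.09%) further on, and 312 (60.2%) were on 5′UTRs made of 1 exon. The peak reached the annotated start in 276 cases (53.3%) and the start codon in 163 (31.5%), spanned both in 75 (14.5%) and reached neither in 154 (29.7%). At 11 summits the 5′UTRs of more than 1 gene overlapped, and the list gives no strand, so that their gene is uncertain.

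Members near the start differed from those further in. The 277 summits under 150 nt from the start, a limit set after seeing the distances, had a median fold of 4.83 and a median pileup of 42, and the other 241 had 3.89 and 60. DRACH was within 50 bases of 78.0% of the near summits (72.7% to 82.5%) and of 90.5% of the others (86.1% to 93.6%), intervals that did not overlap. For GGAC the shares were 53.1% (47.2% to 58.9%) and 64.7% (58.5% to 70.5%), with intervals that overlapped slightly. Windows were cut at the transcript start, so they were shorter for the 65 summits within 50 nt of it, all among the near summits. The windows of the near summits also had a higher median GC content, 66.3% against 60.4%. The part of window length and of GC content in these shares was not tested. The annotated first base was A for 31.8% of the near summits (26.6% to 37.5%) and for 27.8% of the others (22.5% to 33.8%).

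The genes with a 5′UTR peak had long 5′UTRs. A member needs a summit inside a 5′UTR, and a longer 5′UTR offers more bases for one. The rule therefore favours long 5′UTRs, and its part in the lengths and shares below was not tested. The median length of the 5′UTR was 366 nt (quartiles 210 and 654 nt) on the 509 genes, 186 nt on 4913 tested genes with peaks elsewhere only and 150 nt on 7592 tested genes with no peak. For these counts the gene's own summit-bearing transcript was taken, and the representative one gave a median of 327 nt. The share of genes with a 5′UTR peak was 1.11% for 5′UTRs of 100 nt or less, 2.36% up to 200 nt, 4.34% up to 400 nt and 10.9% above that. At least 1 upstream ATG was present in 68.2% of 5′UTRs with a peak (64.0% to 72.1%), in 54.7% on genes with peaks elsewhere only (53.3% to 56.1%) and in 46.2% on genes with no peak (45.1% to 47.3%). Per 1000 bases the order was lost, with 6.04, 6.31 and 6.28 ATG. Within classes of length, the share was 64.1% with a peak (56.2% to 71.2%) and 71.5% without (69.9% to 73.0%) above 200 and up to 400 nt, with overlapping intervals. Above 400 nt, the class with the most members (212), it was 92.0% with (87.5% to 94.9%) and 91.6% without (90.2% to 92.8%). For 5′UTRs of 100 nt or less, the share was 9.52% with (3.77% to 22.1%) and 16.6% without (15.5% to 17.8%), with overlapping intervals. Above 100 and up to 200 nt, it was 30.7% with (22.0% to 41.0%) and 43.2% without (41.6% to 44.8%). The intervals of this class, with 88 members, did not overlap, and the share was lower with a peak. Median GC content was 64.0%, 65.4% and 63.4% in the 3 sets. The first base was A on 30.1% of the genes with a 5′UTR peak (26.2% to 34.2%), on 24.4% of those with peaks elsewhere only (23.3% to 25.7%) and on 25.9% of those with none.

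Many genes with a 5′UTR peak carried further peaks, though how many depended on the strength required. Of the 509 genes, 316 (62.1%, 95% Wilson interval 57.8% to 66.2%) had another peak elsewhere, 218 in the CDS (42.8%) and 144 in the 3′UTR (28.3%), and 193 (37.9%) had none. When every peak needed a fold of at least 4, 95 of 310 genes (30.6%) had another. Without a limit on fold, a peak within 200 nt of the stop codon, the usual place of m6A, was on 155 of the 509 genes (30.5%, 26.6% to 34.6%). More than 1 peak in the 5′UTR was on 9 genes, among them Gsk3b, Brd2, Nrp2 and Maf. Gsk3b, the kinase that marks β-catenin for decay, had its peaks 147 and 677 nt into a 5′UTR of 1525 nt and no peak elsewhere.

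The transcripts with a 5′UTR peak were abundant. Over 507 tested genes the median level in the Mettl3fl/fl libraries was 34.8 TPM (quartiles 13.7 and 77.3), against 15.6 for genes with peaks elsewhere only, 7.60 for genes with no peak and 11.4 for all tested genes. The medians of the members were 35.1 and 34.2 TPM in the Mettl3fl/fl libraries and 38.6 and 38.7 TPM in the Prx1-Cre;Mettl3fl/fl libraries. The share of genes with a 5′UTR peak was 0.391% in the lowest decile of levels, 7.31% in decile 9 and 6.33% in the highest. For any peak the share was highest in decile 6, at 51.0%, and 36.1% in the highest.

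**Figure D4:**
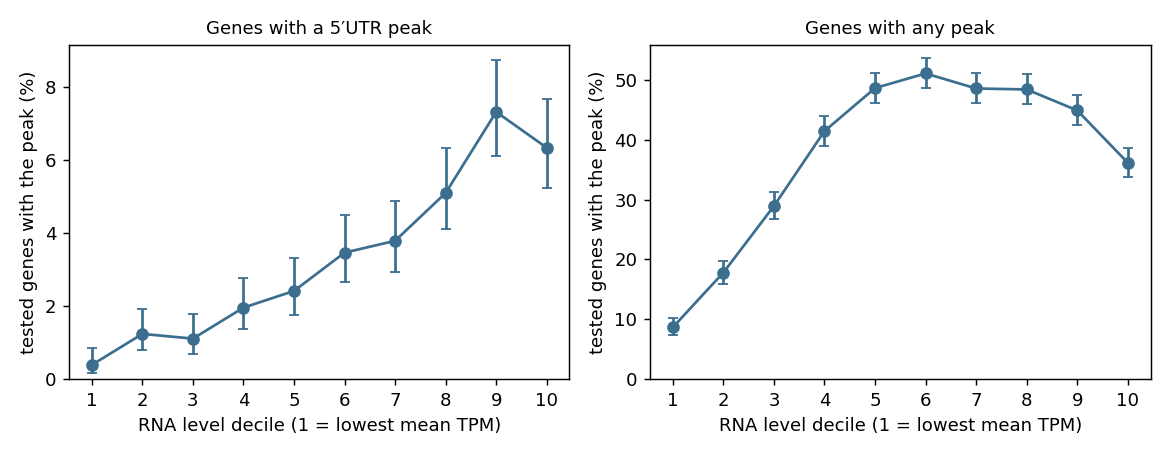
Share of the 15327 tested genes with a 5′UTR peak (left) and with any peak (right) by decile of the mean TPM of the Mettl3fl/fl libraries; bars are 95% Wilson intervals over genes. The 5′UTR share was 0.391% in the lowest decile and 7.31% in decile 9, whereas the share with any peak was highest in decile 6, at 51.0%.

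Gene lists were read against the 3.31% of all tested genes that had a 5′UTR peak. They were chosen with earlier results of these data known, and no list was tested. Of 30 tested genes that write, erase or read m6A, 6 had one (20%), with folds from 2.19 to 7.14. These were the readers Hnrnpc, Ythdf3 and Ythdc1, the eraser Alkbh5, the writer cofactor Rbm15 and the m6Am writer Pcif1, whose summit lay 63 nt from the annotated start. Of 43 genes of the TGF-β and BMP pathway, 6 (14.0%) had one. They were the ligands Tgfb1 and Tgfb3, the procollagen protease Bmp1, the inhibitory Smads Smad6 and Smad7, and the corepressor Tgif1. Of 46 Wnt pathway genes, 5 (10.9%) had one, namely Gsk3b, the transcription factor Lef1, the ligase Rnf43, β-catenin (Ctnnb1) and the receptor Fzd7. At Smad6, Smad7 and Tgfb3 the summit lay 104, 91 and 105 nt into 5′UTRs of 1035, 1427 and 1109 nt. The lists also differed in peaks at any place on the gene. Such a peak was on 17 of the 30 m6A genes, 32 of the 43 TGF-β and BMP genes and 24 of the 46 Wnt genes. Of all 15327 tested genes, 9589 had no peak at all.

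Stress and early response genes are those for which 5′UTR m6A is best known. Of 34 chaperone genes, only Hspa5, the chaperone of the endoplasmic reticulum, had a 5′UTR peak (2.94%), with a fold of 3.91 and a pileup of 124. Of 40 immediate early genes, 3 (7.50%) had one, Fosb (fold 7.09), Ctgf (2.84) and Jun (2.60). Of 49 translation initiation factors, 2 had one, Eif6 and Eif5b, and of 84 cytosolic ribosomal protein genes none, which allows a share of up to 3.57%. Of 30 osteoblast genes, 2 had one, Col1a2, a chain of type I collagen (fold 3.86), and Spp1, osteopontin (3.74). Of 28 adipocyte genes none had one, which allows a share of up to 10.7%. In the larger families the share was 2.09% of 335 Zfp genes (7 genes), 3.92% of 153 Usp, Rnf and Trim genes (6 genes) and 1.12% of 89 oxidative phosphorylation genes (Ndufb7). It was 1 of 24 Hox genes (Hoxc4) and 2 of 32 splicing factors (Hnrnpc and Hnrnpf). The highest folds among the Zfp genes were at Zfp790 (7.17), Zfp30 (5.67) and Zfp740 (4.83), and among the ubiquitin genes at Usp54 (7.91), Usp27x (5.93) and Trim34a (5.54). A peak at any place on the gene was on 33 of the 40 immediate early genes and 17 of the 34 chaperone genes. It was on 18 of the 30 osteoblast genes, 8 of the 28 adipocyte genes and 6 of the 84 ribosomal protein genes.

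RNA-seq asked how the transcripts that carry a 5′UTR peak in MSCs labelled wild type changed in the Prx1-Cre;Mettl3fl/fl MSCs. The 4 libraries held 23948200 to 34069223 counts on named genes. Mettl3 itself did not separate the labelled groups by its count, with 17.6 and 16.9 CPM (counts scaled by library size) in the Mettl3fl/fl libraries and 17.5 and 16.3 in the others (log2 fold change −0.03, SE 0.09, edgeR adjusted p = 0.824). A count over the whole gene does not show the exons that Cre removes. Markers of other cell types were present: the summed level of 8 macrophage markers was 19116 to 24342 TPM in the Mettl3fl/fl libraries and 27569 to 27774 TPM in the others. Most of it was Lyz2, at 14418 and 20117 against 21566 and 21709 TPM. Cd68 (765 and 544 against 737 and 754) and Cd14 (197 and 352 against 280 and 295) overlapped between the groups, and the other macrophage markers were higher in both Prx1-Cre;Mettl3fl/fl libraries. The 10 marrow stromal markers summed to 1295 and 1236 TPM in the Mettl3fl/fl libraries and to 1142 and 1134 in the others. The stromal markers did not move together, since Thy1 had 3.5 and 1.65 against 70.0 and 65.2 TPM, Prrx1 42.4 and 37.9 against 86.4 and 88.5, and Col1a1 434 and 432 against 297 and 306. The 5 neutrophil markers summed to 17.2 and 19.2 against 5.11 and 2.37 TPM, nearly all of it S100a8, with S100a9 and Mpo at 0 in every library. The 5 endothelial markers summed to 1.23 and 1.33 against 9.34 and 7.92 TPM, mostly Emcn and Kdr, while the defining markers Cdh5 and Pecam1 were at 0.25 TPM or less in every library. The part of these cells in the values below was not tested. In bulk RNA, fewer cells of a type and less RNA per cell cannot be told apart.

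Of the 507 tested genes with a 5′UTR peak, 205 (40.4%) passed an adjusted p of 0.05 in edgeR's quasi-likelihood test. The background was 30.5% of all 15327 tested genes (4677). Higher in Prx1-Cre;Mettl3fl/fl were 129 of the members (25.4%), beside 13.7% of all genes, and lower were 76 (15.0%), beside 16.8%. The median log2 fold change of the members was 0.07, beside −0.0038 over all genes tested. Genes with peaks elsewhere only had 22.4% higher and 13.2% lower, with a median of 0.09, and genes with no peak 8.35% higher and 18.9% lower, with a median of −0.07. The 193 genes whose only peak was in the 5′UTR had 38 higher (19.7%) and 30 lower (15.5%), with a median of 0.0015. The 314 with further peaks had 91 higher (29.0%) and 46 lower (14.6%), with a median of 0.10. The numbers of calls depended on single libraries. Without either Prx1-Cre;Mettl3fl/fl library, 83 or 72 members passed (16.4% and 14.2%), and without either Mettl3fl/fl library 370 or 355 (73.1% and 70.2%). The shares of all genes called in the same fits were 11.96% and 11.8%, and 55.8% and 50.04%. On the deposited TPM, with limma, higher calls were 73.9% or 74.1% of the members' calls, depending on the pseudocount, against 62.9% on counts. Over all tested genes the same change moved that share from 44.9% to 55.2% or 55.7%.

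The 5 largest falls among these genes were Pkp1, Extl1, Fosb, Fam167a and Pcdhga8. Fosb, a partner of Jun in the AP-1 transcription factor, had 14.8 and 15.8 CPM in the Mettl3fl/fl libraries and 1.73 and 1.57 in the Prx1-Cre;Mettl3fl/fl libraries. It fell by 3.22 on the log2 scale (SE 0.14, adjusted p = 3.57e-05). Its peak had 10 fragments at the summit, 361 nt into a 5′UTR of 614 nt.

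Extl1, a glycosyltransferase of heparan sulfate synthesis, had 5.15 and 3.64 CPM against 0.248 and 0.502 and fell by 3.49 (SE 0.37, adjusted p = 0.00114). Fam167a had 6.66 and 5.55 CPM against 0.619 and 0.722 and fell by 3.17 (SE 0.23). Pkp1, a plakophilin of desmosomes, had 14 and 23 counts in the Mettl3fl/fl libraries and 0 in both others, at least 5.64-fold lower when each of those is set at a floor of 3 counts. The groups did not overlap for any of these genes, as the naming rule required.

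Pcdhga8, a protocadherin, had 13.5 and 26.7 CPM against 4.21 and 1.95 and fell by 2.74 (SE 0.43). It shares its last exons with the other protocadherins of its cluster, so its reads are uncertain.

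The 5 largest rises were Itgb8, Lef1, Zfp30, Mmp15 and A930004D18Rik. Itgb8, an integrin subunit that activates TGF-β, had 0.651 and 0.778 CPM in the Mettl3fl/fl libraries and 5.45 and 4.64 in the others, and it rose by a log2 fold change of 2.82 (SE 0.24, adjusted p = 0.00047). Lef1, a transcription factor of Wnt signalling, had 0.592 and 0.354 CPM against 2.56 and 2.26, a log2 fold change of 2.32 (SE 0.34, adjusted p = 0.00388). Its peak had 7 fragments at the summit, 17 nt from the annotated start.

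Zfp30, a zinc finger protein, had 2.07 and 2.58 CPM against 6.23 and 7.47 (log2 fold change 1.57, SE 0.20). Mmp15, a membrane-bound metalloproteinase, had 4.73 and 3.54 CPM against 11.4 and 12.3 (1.51, SE 0.17). A930004D18Rik had 2.16 and 2.16 CPM against 4.95 and 5.40 (1.26, SE 0.18). Itgb8, Lef1, Zfp30 and Mmp15, and Fam167a among the falls, had no peak outside the 5′UTR.

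**Figure D5:**
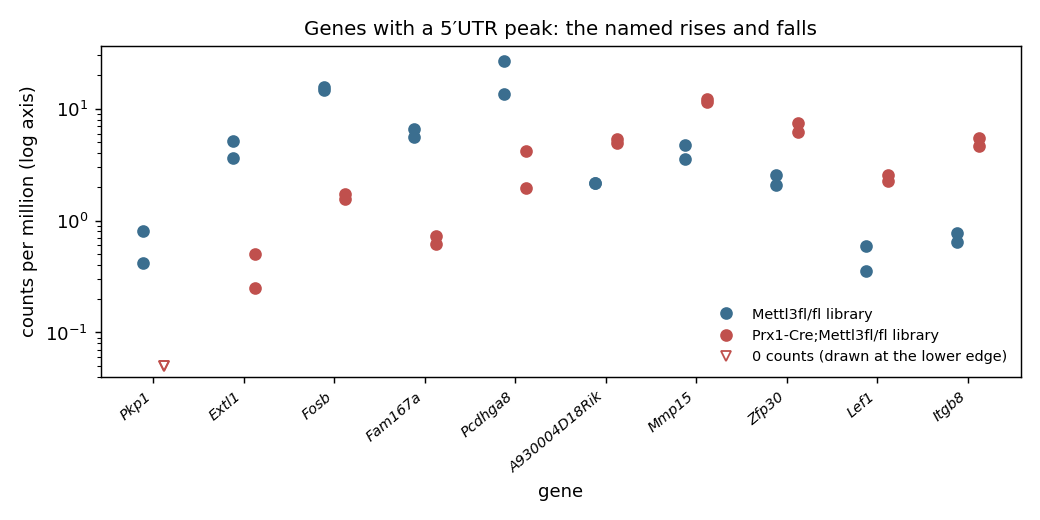
CPM (counts scaled by library size, log axis) in each library for the 10 named genes with a 5′UTR peak, ordered by log2 fold change, with Mettl3fl/fl libraries in blue and Prx1-Cre;Mettl3fl/fl libraries in red; each point is 1 library and open triangles mark 0 counts. The groups do not overlap for any of the genes, as the rule that chose them required, with Fosb at 14.8 and 15.8 against 1.73 and 1.57.

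In the lists, the members that moved were few. Smad6, an inhibitor of BMP signalling, fell by 1.17 on the log2 scale and Tgfb3 by 0.43, and the other 4 members of the TGF-β and BMP list did not pass the test. In the whole list 10 of 43 genes were higher and 16 lower. Of the Wnt members only Lef1 passed, while 13 of the 46 genes of the list were higher and 7 lower. Col1a2 fell by 1.14, whereas Spp1, at −0.86, did not pass (adjusted p = 0.131). Of the 3 immediate early members, Fosb fell and Ctgf and Jun (log2 fold change 0.45) rose, while 7 of the 40 genes of the list were higher and 23 lower. In the whole osteoblast list 3 of 30 genes were higher and 20 lower. None of the 6 m6A genes with a 5′UTR peak passed, with log2 fold changes from −0.26 for Hnrnpc to 0.21 for Alkbh5, and in that list 3 of 30 genes were higher and 1 lower. The ferritins did not pass either, with 0.08 for Fth1 and 0.01 for Ftl1.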

How the data were processed

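For RNA-seq the authors deposited estimated counts per gene and a value headed FPKM that has the same sum in each library and is therefore TPM; the submitters' processing notes name HISAT2 2.0.4 and mm10, and the counting tool and strand setting are not given in the sources used here. For MeRIP-Seq the authors deposited 1 list of peaks with the pileup signal, the fold (a ratio over local background) and −log10 of p (not used) and of q. The headers of both −log10 columns were lost, and they were read from their place in MACS2 output. The notes name TopHat, MACS2 and mm9; whether libraries were pooled is not given. All per-sample columns were matched to labels.

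The members, gene lists, naming rule and tests were chosen with earlier results of these data known. Summits were placed on GENCODE vM1; where several transcripts held the summit in their 5′UTR, the one with the longest CDS was used, then the longest. Named peaks were the 6 highest by pileup, fold and −log10 q, and up to 3 per list by fold; members of the m6A, TGF-β and BMP, and Wnt lists beyond those, and genes with several 5′UTR peaks were named after their values were seen; named RNA changes were the 5 largest each way among members with an adjusted p under 0.05, at least 10 counts in every library of 1 group and no overlap between groups. A list whose members are at 0 was given an upper limit of 3 genes. Counts were rounded; rows without a gene name (0.11% to 0.125% of counts) were left out. All genes passing filterByExpr were fitted with edgeR 4.0.16 (TMM, quasi-likelihood test, two-sided, Benjamini-Hochberg); the fit was checked on simulated counts. Log2 fold changes are Prx1-Cre;Mettl3fl/fl minus Mettl3fl/fl. Alternatives were RLE factors, no filter, DESeq2 1.42.0, limma 3.58.1 on log2(TPM + 0.1) or log2(TPM + 1), a replicate block and each library left out. Intervals are 95% Wilson intervals for shares and binomial order intervals for medians, and cover counting error over peaks or genes only.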

Additional observations from a re-analysis of the deposited data

How the results depend on the processing

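The share of peaks in the 5′UTR (5.10%) was 4.39% with 1 representative transcript per gene, 6.05% at a fold of at least 4 and 6.46% with each gene counted once per category. The share with GGAC (81.3%) was 58.9% within 50 bases of the summit, and with DRACH and RRACH in its place 96.5% and 93.8%. The share of summits within 100 nt of the start (35.3%) was 44.6% with the transcript of shortest distance and 44.6% at a fold of at least 4. The share of genes with another peak (62.1%) was 30.6% when every peak needed a fold of at least 4. The median level of the members (34.8 TPM) was 37.0 TPM over all 4 libraries, and 74.5 as CPM, which is another unit. The share of members called in RNA-seq (40.4%) ran from 14.2% to 73.1% with 1 library left out, where the lone library of a group is assumed to vary like the others. Same-numbered libraries of the groups did not deviate together (r = 0.032 over genes, for 2 pairs of libraries). With 2 libraries per group, the deviations within a group mirror each other, so this cannot settle whether same-numbered libraries shared a source. With the replicate number as a block 42.8% of the members (217 genes) and 31.8% of all tested genes (4881) were called. Over all genes, calls were 1867 to 8750 with 1 library left out, against 4677. Mettl3 changed sign without the first Mettl3fl/fl library (0.0013) and without the second Prx1-Cre;Mettl3fl/fl library (0.023), with no call; with 1 library left out its log2 fold change ran from −0.078 to 0.023. Pkp1 was lost with limma on log2(TPM + 1). The other 10 named genes kept their side of the threshold under every alternative fitted, and Mettl3 alone changed sign. The single peak list gives no depth, so what depth limits cannot be stated for the peaks. No filter on low counts, RLE factors and DESeq2 left the share of members called within 1.5 times.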

Other observations

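Epidermal genes stood out in the peak list beside RNA-seq. A set of 12 epidermal genes, chosen after seeing the values, carried 48 peaks, 3 of them in a 5′UTR (Krt5, Dmkn and Pkp1). Of the 12, 9 had at most 5 counts in each of the 4 RNA-seq libraries and still carried 37 peaks. Krt5 had 7 peaks with folds from 6.66 to 43.3. Krt17, a keratin of hair follicles, had 5 peaks with folds up to 31.0 and 0 counts in every RNA-seq library. Lor, loricrin of the cornified envelope, had 2 peaks with folds up to 38.3 and 1, 2, 3 and 5 counts. Krt10 and Dsp were counted in RNA-seq, Krt10 at 77, 77, 37 and 64 counts. The MeRIP-Seq and RNA-seq samples were different libraries, and the reason for this gap was not tested. Leaving out the 15 members on genes under 1 TPM or not tested left the median fold of the 5′UTR peaks at 4.29, the share within 100 nt of the start at 36.0% and the share with GGAC at 81.1%.

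Among the cell type markers, 5′UTR peaks were on Cd14 (fold 2.53, pileup 69) and C1qa (fold 3.19, pileup 155), both macrophage genes. None of the 10 marrow stromal markers had one, and neither did the neutrophil, endothelial and erythroid markers. Since 3.31% of all tested genes had a 5′UTR peak, none among 10 genes does not set the stromal markers apart.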
